A study of Mus musculus with 23 samples.

Results

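The 39 genes described here carry glucose into the cell, break it down to pyruvate and lactate, gate the entry of pyruvate into the mitochondrion, and run the pentose phosphate pathway. They were chosen by name, as 17 roles along these pathways, and all 39 had a row among the 53379 gene IDs of the count table. Transcripts were measured in sorted mouse splenic CD4+ T cells of a C57BL/6 background by RNA-seq after 72 h in culture with 30 IU/ml IL-2. The sort took CD45+CD3+CD4+CD8- cells.

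Stimulated cultures also received antibodies against CD3 and CD28, which stand in for antigen and costimulation, while their controls had IL-2 alone (unstimulated). Each was kept with 5 mM niacin or with none, and cells were labelled Gpr109a-/- (knockout-labelled below) or wild type. This gave 8 groups: stimulated knockout-labelled with and without niacin, stimulated wild-type-labelled with and without niacin, and the same 4 unstimulated. Each held 3 libraries, except the unstimulated knockout-labelled cells with niacin, with 2, numbered 2 and 3. The age of the mice, the way the knockout was made and whether libraries came from separate mice were not stated in the labels, so p-values measure only the spread between these libraries.

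Glycolysis turns glucose into pyruvate in the cytosol. Transporters and hexokinase set entry, phosphofructokinase commits the sugar to breakdown, the lower steps recover ATP and NADH, and lactate dehydrogenase regenerates NAD. The pentose phosphate pathway branches off after hexokinase and makes NADPH and ribose for nucleotides. Resting T cells use little glucose, and activated T cells are known for high glucose uptake and lactate release even in oxygen.

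Hcar2 (Gpr109a), which encodes the niacin receptor and is the gene named in the labels, went against them. It had 169 counts over 10 of 11 knockout-labelled libraries and 1 count over 12 wild-type-labelled libraries, so genotype directions below are those of the labels only. Library totals were 13205565 to 30090018 counts. Unstimulated knockout-labelled library 3 stood apart, with the lowest total (the next was 20604050), 3.52% of counts on rRNA-like genes against 1.01 to 2.15% elsewhere, and an alignment name without a tag the other 22 carried. The first and second niacin libraries with wild-type label and stimulation were low in mitochondrial counts (0.187% and 0.216%), while the third library of that group held 0.605%. Unstimulated wild-type-labelled library 1 was low as well (0.346%, while its fellow libraries held 0.937% and 0.802%). Summed over 5 CD4 T cell markers the level was 2874 to 3715 CPM (counts scaled to a common library size) in stimulated and 2024 to 3483 CPM in unstimulated libraries. The 2024 CPM was that of unstimulated knockout-labelled library 3, the lowest unstimulated library for Cd3d, Cd3g, Cd4 and Trac. These stood there at 175, 204, 400 and 441 CPM (unstimulated medians 421, 443, 549 and 732 CPM), while Cd3e was at its median of 804 CPM. Of 6 marker lists, that of NK cells did not overlap (72.2 to 108 CPM summed over 4 markers in stimulated, against 6.63 to 30.0 CPM in unstimulated libraries). Of these, Eomes, which activated T cells also express, had the higher median in stimulated libraries, Klrb1c and Ncr1 the lower, and Klra8 was at 0 throughout. The parts these had in the results were not tested.

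Promoter windows were taken from RefSeq (build GRCm38.p6), running from 250 bases before to 50 bases after each annotated start. They were searched on both strands for ACGTG, the core of the element that hypoxia-inducible factor binds, and for CACGTG, the E-box that Myc and other factors bind. CACGTG reads the same on both strands and holds ACGTG in each direction, so each E-box is also counted as 2 overlapping ACGTG matches. Of the 39 genes, 38 had a window, 58 windows in all. ACGTG occurred in 22 of the 58 (37.9%), against 19.6% of all 32851 windows, and CACGTG in 5 (8.62%), against 7.15%. By gene, 18 of 38 (47.4%) had ACGTG in any window, against 21.8% of 27025 genes, and these shares are descriptions with no test.

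The 6 windows printed here belong to genes picked for contrasting behaviour. Ldha, Pgk1, Hk2 and Aldoc rose strongly with stimulation, Pdk1 passed no test, and Pdk2 fell. Each is given 5′ to 3′ on the strand of its gene, with matches in capitals: Ldha (chr7:46845554-46845853, plus strand), Pgk1 (chrX:106186850-106187149, plus strand), Hk2 (chr6:82774405-82774704, minus strand), Aldoc (chr11:78322823-78323122, plus strand), Pdk1 (chr2:71872974-71873273, plus strand) and Pdk2 (chr11:95041322-95041621, minus strand).
Ldha: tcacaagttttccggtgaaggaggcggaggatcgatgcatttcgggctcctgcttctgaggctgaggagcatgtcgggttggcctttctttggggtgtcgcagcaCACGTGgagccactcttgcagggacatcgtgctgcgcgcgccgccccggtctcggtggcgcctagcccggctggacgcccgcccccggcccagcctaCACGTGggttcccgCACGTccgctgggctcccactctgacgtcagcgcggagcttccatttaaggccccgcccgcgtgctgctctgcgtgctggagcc
Pgk1: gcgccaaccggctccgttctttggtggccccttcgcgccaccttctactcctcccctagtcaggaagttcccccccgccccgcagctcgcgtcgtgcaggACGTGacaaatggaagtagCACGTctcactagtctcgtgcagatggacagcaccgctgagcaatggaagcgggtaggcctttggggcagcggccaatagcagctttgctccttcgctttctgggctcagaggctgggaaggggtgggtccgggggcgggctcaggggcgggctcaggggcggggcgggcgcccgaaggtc
Hk2: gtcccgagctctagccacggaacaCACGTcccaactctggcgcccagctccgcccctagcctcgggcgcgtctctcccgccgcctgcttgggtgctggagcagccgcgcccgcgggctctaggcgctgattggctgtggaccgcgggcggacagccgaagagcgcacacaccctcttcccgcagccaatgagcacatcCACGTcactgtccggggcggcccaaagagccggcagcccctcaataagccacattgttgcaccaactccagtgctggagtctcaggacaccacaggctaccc
Aldoc: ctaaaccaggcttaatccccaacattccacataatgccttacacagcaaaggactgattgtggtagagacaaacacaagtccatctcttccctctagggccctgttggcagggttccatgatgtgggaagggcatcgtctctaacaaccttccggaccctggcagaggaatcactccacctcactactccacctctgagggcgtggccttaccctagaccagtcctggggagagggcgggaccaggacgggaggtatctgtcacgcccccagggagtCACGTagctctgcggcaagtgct
Pdk1: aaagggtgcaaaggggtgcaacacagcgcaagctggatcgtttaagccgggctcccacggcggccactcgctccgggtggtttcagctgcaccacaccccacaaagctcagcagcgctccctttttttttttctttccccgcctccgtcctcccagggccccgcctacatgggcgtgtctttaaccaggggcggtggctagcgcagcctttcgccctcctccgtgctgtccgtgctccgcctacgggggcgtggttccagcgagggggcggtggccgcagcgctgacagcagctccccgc
Pdk2: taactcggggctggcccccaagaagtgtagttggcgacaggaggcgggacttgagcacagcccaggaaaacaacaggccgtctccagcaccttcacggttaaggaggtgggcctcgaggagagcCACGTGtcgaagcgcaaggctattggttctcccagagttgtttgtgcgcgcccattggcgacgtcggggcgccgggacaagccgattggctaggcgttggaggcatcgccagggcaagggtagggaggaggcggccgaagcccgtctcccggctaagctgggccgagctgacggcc
The Ldha window had 3 separate sites, beginning at -145, -48 and -34, of which the first and second were E-boxes (the start base is 1 and there is no 0). Sites in the Pgk1 window began at -150 and -131, and those in the Hk2 window at -226 and -52. Aldoc had 1 site at 28, after its start, and this Pdk2 window had 1 E-box at -126. In this Pdk1 window there was no match. RefSeq gives Ldha, Aldoc, Pdk1 and Pdk2 another window each, beginning at chr7:46846832, chr11:78323948, chr2:71874654 and chr11:95040826, and these hold neither motif. These picked genes do not stand for the set. No match was found for Tpi1, Slc2a3, Gpi1 or Pfkp, which rose in every stimulation comparison, while Pkm and Slc2a1 also rose and had matches. Hk3 and Pfkfb2, which passed in no stimulation comparison, had matches too. A match says only that the letters are there.

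Most genes of the set changed with stimulation. The 39 genes together took 4.55 to 5.33% (median 4.84%) of all counts in the 12 stimulated libraries, against 0.646 to 0.964% (median 0.738%) in the 11 unstimulated ones, and the ranges did not overlap. With edgeR's quasi-likelihood test on all 16882 genes above the filter, adjusted by Benjamini-Hochberg within each comparison at 0.05, 38 of the 39 could be tested. Pdk4, a pyruvate dehydrogenase kinase, had 0 counts in all but stimulated wild-type-labelled library 2 without niacin (0.114 CPM). Of the 38, 27 went up and 2 down with niacin under the knockout label (all genes 24.5% up, 25.3% down), and 27 up and 1 down without niacin (25.2% up, 27.5% down). In wild-type-labelled cells 29 rose and 2 fell with niacin (26% and 26.6%), and 26 rose and 2 fell without it (23.4% and 21.7%). The median log2 fold change of the 38 was 1.86, 1.74, 1.95 and 1.76 in the same order, against -0.07, -0.13, -0.10 and -0.07 over all tested genes. Levels and folds are relative to the whole library, so total RNA per cell is not seen, and in bulk samples fewer cells of a type and less RNA per cell cannot be told apart.

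A set of 23 genes rose in all 4 stimulation comparisons, and for the same 23 every stimulated library lay above every unstimulated one (15% of all tested genes did this). Pdk2 alone of the 38 fell in all 4 and lay lower in every stimulated library (11.4% of all genes). Hk3, Pdk1, Pfkfb1 and Pfkfb2 were called in none, and 10 genes were called in 1 to 3 comparisons. In the paragraphs that follow, 4 fold changes given together are stimulated over unstimulated, on the log2 scale, in the order knockout-labelled with niacin, knockout-labelled without, wild-type-labelled with niacin and wild-type-labelled without. CPM values use TMM factors, and CPM per kb divides by the exon length in the table. Coordinates are those of the deposited table, whose reads were counted over exons.

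**Figure D1:**
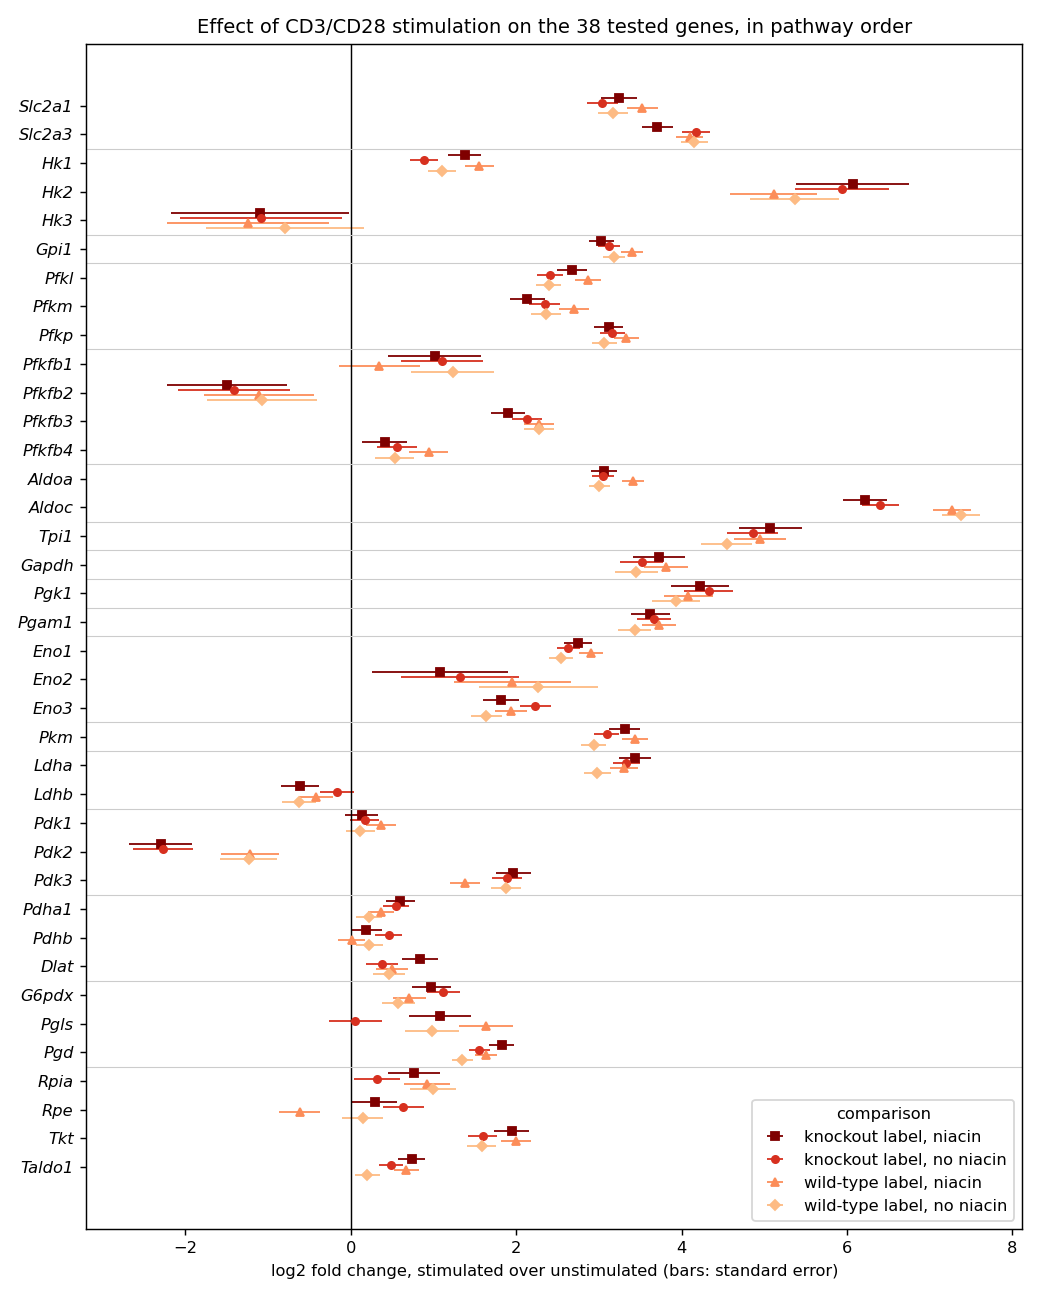
Log2 fold change (stimulated over unstimulated) of the 38 tested genes in pathway order, with standard errors, for 4 comparisons. Aldoc and Hk2 have the largest changes in all 4 comparisons, Pdk1 stays near 0 and Pdk2 lies below 0.

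Both glucose transporter genes rose, and the fold changes of Slc2a3 were the larger in all 4 comparisons. Slc2a1 encodes GLUT1 and Slc2a3 encodes GLUT3, the high-affinity transporter (ENSMUSG00000028645, chromosome 4, 119108711 to 119137983; ENSMUSG00000003153, chromosome 6, 122727809 to 122801640). Slc2a1 had 689, 696 and 705 CPM in stimulated knockout-labelled cells with niacin and 723, 747 and 710.4 CPM without it, and 926, 827 and 761 CPM in stimulated wild-type-labelled cells with niacin and 718, 729 and 736 CPM without it. Slc2a1 in unstimulated cells had 67.1 and 80.0 CPM (knockout-labelled, niacin), 74.2, 71.7 and 119 CPM (knockout-labelled, no niacin), 89.1, 66.9 and 62.5 CPM (wild-type-labelled, niacin) and 95.9, 76.4 and 70.0 CPM (wild-type-labelled, no niacin). The 12 stimulated values all exceeded the highest unstimulated one, in library 3 of the knockout-labelled cells without niacin. The log2 fold changes of Slc2a1 were 3.24 ± 0.22, 3.04 ± 0.18, 3.53 ± 0.19 and 3.17 ± 0.19 (SE; adjusted p at most 8.10e-10). Slc2a3 had 866, 738 and 742 CPM in stimulated knockout-labelled cells with niacin and 1070.1, 829 and 859 CPM without it, and 1067, 915 and 1039 CPM in stimulated wild-type-labelled cells with niacin and 1229, 1104 and 1049 CPM without it. Slc2a3 in unstimulated cells had 57.9 and 61.8 CPM (knockout-labelled, niacin), 60.5, 52.4 and 39.5 CPM (knockout-labelled, no niacin), 62.9, 52.0 and 61.0 CPM (wild-type-labelled, niacin) and 68.4, 63.4 and 57.8 CPM (wild-type-labelled, no niacin). For Slc2a3 the changes were 3.71 ± 0.19, 4.18 ± 0.16, 4.10 ± 0.16 and 4.16 ± 0.16 (adjusted p at most 1.45e-11). Summed per kb, both genes together came to 300.3 to 411 CPM per kb in stimulated and 26.2 to 39.5 CPM per kb in unstimulated libraries. Slc2a3 made up 33.7 to 45.3% of that sum in stimulated libraries, against 13.8 to 32.1% in unstimulated ones. Slc2a1 thus led per length in every group, whereas in CPM not divided by length Slc2a3 was the higher gene in each of the 12 stimulated libraries and Slc2a1 in each of the 11 unstimulated ones.

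Hexokinases phosphorylate glucose and trap it in the cell. Hk1, the widely expressed form, remained the main gene in every group, but Hk2, the inducible form, had much larger fold changes (ENSMUSG00000037012, chromosome 10, 62268855 to 62379908; ENSMUSG00000000628, chromosome 6, 82725025 to 82774454). Hk1 had 637, 594 and 648 CPM in stimulated knockout-labelled cells with niacin and 636, 628 and 659 CPM without it, and 717, 697 and 595 CPM in stimulated wild-type-labelled cells with niacin and 646, 631 and 650.4 CPM without it. Hk1 in unstimulated cells had 244 and 238 CPM (knockout-labelled, niacin), 310.1, 259 and 476 CPM (knockout-labelled, no niacin), 269.8, 204 and 209.8 CPM (wild-type-labelled, niacin) and 332, 316 and 250.01 CPM (wild-type-labelled, no niacin). Hk1 changed by 1.38 ± 0.20, 0.88 ± 0.17, 1.56 ± 0.17 and 1.10 ± 0.17 (adjusted p at most 2.25e-04), and its unstimulated values were highest in library 3 of the knockout-labelled cells, which stood apart. Hk2 had 79.4, 82.3 and 61.7 CPM in stimulated knockout-labelled cells with niacin and 90.2, 84.2 and 90.3 CPM without it, and 87.0, 97.0 and 94.5 CPM in stimulated wild-type-labelled cells with niacin and 92.9, 91.2 and 97.2 CPM without it. Hk2 in unstimulated cells had 1.49 and 0.734 CPM (knockout-labelled, niacin), 0.574, 2.53 and 1.11 CPM (knockout-labelled, no niacin), 6.27, 1.08 and 0.820 CPM (wild-type-labelled, niacin) and 1.86, 2.31 and 2.63 CPM (wild-type-labelled, no niacin). Hk2 ranged over 61.7 to 97.2 CPM (median 90.2) in the 12 stimulated libraries, against 0.574 to 6.27 CPM (median 1.49) in the 11 unstimulated ones, with no overlap. Its changes were 6.07 ± 0.69, 5.94 ± 0.57, 5.11 ± 0.53 and 5.37 ± 0.54 (adjusted p at most 7.35e-07). Without unstimulated knockout-labelled library 2 the change without niacin was 6.84, and without unstimulated wild-type-labelled library 1 with niacin it was 6.61 there. Hk2 held 11.99 to 18.5% of hexokinase transcripts per kb in stimulated libraries, against 0.260 to 3.13% in unstimulated ones. Hk3, a hexokinase known mainly from myeloid cells, lay at 0 to 2.25 CPM (median 0.790) in the 12 stimulated libraries, against 0.957 to 3.26 CPM (median 1.57) in the 11 unstimulated ones and passed no test.

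Gpi1 encodes the isomerase that makes fructose 6-phosphate (ENSMUSG00000036427, chromosome 7, 34201330 to 34230336). Gpi1 had 2066, 1949.6 and 1933 CPM in stimulated knockout-labelled cells with niacin and 2198, 2094 and 2091 CPM without it, and 2704, 2694 and 2391 CPM in stimulated wild-type-labelled cells with niacin and 2547, 2385 and 2251 CPM without it. Gpi1 in unstimulated cells had 227 and 258 CPM (knockout-labelled, niacin), 281, 233 and 218 CPM (knockout-labelled, no niacin), 276, 229 and 232 CPM (wild-type-labelled, niacin) and 305, 250.2 and 233 CPM (wild-type-labelled, no niacin). The groups did not overlap, and the changes were 3.03 ± 0.15, 3.12 ± 0.13, 3.40 ± 0.13 and 3.19 ± 0.13 (adjusted p at most 1.39e-11).

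The 3 phosphofructokinase genes all rose. Pfkl (liver type), Pfkp (platelet type) and Pfkm (muscle type) encode subunits of the enzyme that commits sugar to glycolysis (ENSMUSG00000020277, chromosome 10, 77986947 to 78010083; ENSMUSG00000021196, chromosome 13, 6579768 to 6648777; Pfkm is ENSMUSG00000033065 on chromosome 15). Pfkl had 945, 930.0 and 933 CPM in stimulated knockout-labelled cells with niacin and 912, 905 and 974 CPM without it, and 1193, 1075 and 978 CPM in stimulated wild-type-labelled cells with niacin and 858, 871 and 942 CPM without it. Pfkl in unstimulated cells had 148 and 144 CPM (knockout-labelled, niacin), 141, 153 and 231 CPM (knockout-labelled, no niacin), 155, 144 and 144 CPM (wild-type-labelled, niacin) and 196, 163 and 149 CPM (wild-type-labelled, no niacin). Pfkl changed by 2.68 ± 0.18, 2.41 ± 0.15, 2.87 ± 0.16 and 2.39 ± 0.15 (adjusted p at most 8.42e-10). Pfkp had 1616, 1543 and 1565 CPM in stimulated knockout-labelled cells with niacin and 1736, 1651 and 1729 CPM without it, and 1882, 2028 and 1986 CPM in stimulated wild-type-labelled cells with niacin and 1868, 1885 and 1834 CPM without it. Pfkp in unstimulated cells had 175 and 187 CPM (knockout-labelled, niacin), 225, 198 and 147 CPM (knockout-labelled, no niacin), 232, 176 and 176 CPM (wild-type-labelled, niacin) and 257, 207 and 203 CPM (wild-type-labelled, no niacin). Pfkp changed by 3.12 ± 0.18, 3.16 ± 0.15, 3.33 ± 0.15 and 3.07 ± 0.15 (adjusted p at most 5.92e-11), and it led per length in stimulated wild-type-labelled cells without niacin, while Pfkl led in the other 7 groups. Pfkm was the lowest, at 65.5 to 118 CPM (median 89.2) in the 12 stimulated libraries, against 12.9 to 24.4 CPM (median 15.9) in the 11 unstimulated ones, and changed by 2.13 ± 0.21, 2.34 ± 0.18 and 2.36 ± 0.18 in the comparisons other than wild-type-labelled cells with niacin, with a 95% interval of 2.32 to 3.08 in that one (adjusted p at most 1.26e-07 in the 4). Per kb, Pfkl held 42.4 to 50.4% of the step in stimulated and 50.0 to 67.6% in unstimulated libraries, ranges that overlap. In CPM not divided by length, Pfkp had the higher mean share in every group (50.2 to 65.3%, against 31.2 to 45.8% for Pfkl). Pfkp lies next to and overlaps Pitrm1, so reads in shared exons are uncertain.

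Among the bifunctional enzymes that make or break fructose 2,6-bisphosphate, the main activator of phosphofructokinase, Pfkfb3 was the gene that rose throughout (ENSMUSG00000026773, chromosome 2, 11471433 to 11554077). Pfkfb3 encodes the form with the strongest kinase activity. Pfkfb3 had 58.1, 50.8 and 44.9 CPM in stimulated knockout-labelled cells with niacin and 58.2, 51.9 and 49.6 CPM without it, and 70.7, 64.1 and 70.6 CPM in stimulated wild-type-labelled cells with niacin and 69.2, 80.9 and 65.1 CPM without it. Pfkfb3 in unstimulated cells had 14.0 and 13.4 CPM (knockout-labelled, niacin), 13.8, 11.9 and 10.8 CPM (knockout-labelled, no niacin), 9.69, 16.5 and 16.1 CPM (wild-type-labelled, niacin) and 16.04, 13.5 and 14.9 CPM (wild-type-labelled, no niacin). Its changes were 1.90 ± 0.21, 2.13 ± 0.18, 2.28 ± 0.18 and 2.27 ± 0.18 (adjusted p at most 4.52e-07). Pfkfb4 had 10.3, 17.9 and 17.9 CPM in stimulated knockout-labelled cells with niacin and 19.6, 19.0 and 14.5 CPM without it, and 24.4, 31.8 and 21.0 CPM in stimulated wild-type-labelled cells with niacin and 27.2, 19.9 and 16.9 CPM without it. Pfkfb4 in unstimulated cells had 13.2 and 9.96 CPM (knockout-labelled, niacin), 12.3, 13.7 and 9.93 CPM (knockout-labelled, no niacin), 13.5, 14.1 and 12.6 CPM (wild-type-labelled, niacin) and 15.5, 16.5 and 12.2 CPM (wild-type-labelled, no niacin). Pfkfb4 changed by 0.41 ± 0.27, 0.56 ± 0.24, 0.94 ± 0.24 and 0.53 ± 0.24, a call only in wild-type-labelled cells with niacin (adjusted p = 0.212, 0.0533, 0.0024 and 0.0724 in the 4 comparisons), and without libraries 1 and 2 of the stimulated group it was lost (adjusted p = 0.153). Per kb, Pfkfb3 held 54.2 to 68.3% of these 4 genes in stimulated libraries, against 24.5 to 37.97% in unstimulated ones, where Pfkfb4 held 41.5 to 57.6%. In CPM not divided by length, Pfkfb3 had the higher mean share in unstimulated groups too (42.1 to 44.5%, against 37.3 to 43.6% for Pfkfb4). Pfkfb1 and Pfkfb2 were low. Pfkfb1 lay at 1.81 to 5.75 CPM (median 4.48) in the 12 stimulated libraries, against 0.514 to 4.02 CPM (median 1.91) in the 11 unstimulated ones (changes 1.01 ± 0.56, 1.11 ± 0.50, 0.35 ± 0.49 and 1.23 ± 0.50), and Pfkfb2 at 0 to 2.18 CPM (median 1.16) in the 12 stimulated libraries, against 1.52 to 3.63 CPM (median 2.72) in the 11 unstimulated ones (changes -1.496 ± 0.72, -1.41 ± 0.68, -1.11 ± 0.66 and -1.07 ± 0.66). Neither passed in any comparison, although Pfkfb1 missed narrowly in wild-type-labelled cells without niacin (adjusted p = 0.051) and was called there under 12 other settings.

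Aldolase splits fructose 1,6-bisphosphate. Aldoa was among the most abundant genes of the pathway and Aldoc, the brain-type gene, had the largest fold change of the 38 in all 4 comparisons (ENSMUSG00000030695, chromosome 7, 126795234 to 126800751; ENSMUSG00000017390, chromosome 11, 78322968 to 78327781). Aldoa had 5718, 5609 and 5668 CPM in stimulated knockout-labelled cells with niacin and 6082, 5677 and 5892 CPM without it, and 7949.6, 7773 and 6741 CPM in stimulated wild-type-labelled cells with niacin and 7178, 6426 and 6322 CPM without it. Aldoa in unstimulated cells had 661 and 696 CPM (knockout-labelled, niacin), 794, 702 and 639 CPM (knockout-labelled, no niacin), 825, 645 and 638 CPM (wild-type-labelled, niacin) and 952, 821 and 705 CPM (wild-type-labelled, no niacin). Aldoa changed by 3.06 ± 0.16, 3.05 ± 0.13, 3.41 ± 0.13 and 3.01 ± 0.13 (adjusted p at most 1.39e-11). Aldoc had 284, 248.8 and 212 CPM in stimulated knockout-labelled cells with niacin and 328, 284 and 239 CPM without it, and 544, 526 and 489.6 CPM in stimulated wild-type-labelled cells with niacin and 528, 438 and 375 CPM without it. Aldoc in unstimulated cells had 3.46 and 3.20 CPM (knockout-labelled, niacin), 3.88, 3.20 and 2.82 CPM (knockout-labelled, no niacin), 3.47, 3.497 and 3.11 CPM (wild-type-labelled, niacin) and 2.15, 3.64 and 2.29 CPM (wild-type-labelled, no niacin). Aldoc ranged over 212 to 544 CPM (median 352) in the 12 stimulated libraries, against 2.15 to 3.88 CPM (median 3.20) in the 11 unstimulated ones, with no overlap. Aldoc changed by 6.22 ± 0.26, 6.41 ± 0.22, 7.27 ± 0.23 and 7.38 ± 0.23 (adjusted p at most 1.54e-12), and its share of the step per kb was 3.23 to 6.16% in stimulated libraries, against 0.202 to 0.482% in unstimulated ones. A second row with the symbol Aldoa held 3 to 93 counts a library and was not used.

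The main gene of each of the 5 steps from triose phosphates to phosphoenolpyruvate rose in all 4 comparisons. Tpi1 encodes triose phosphate isomerase (ENSMUSG00000023456, chromosome 6, 124810586 to 124814296). Tpi1 had 3355, 3366 and 3257 CPM in stimulated knockout-labelled cells with niacin and 3423, 3259 and 3407 CPM without it, and 3782, 3796 and 3527 CPM in stimulated wild-type-labelled cells with niacin and 3413, 3240.4 and 3471 CPM without it. Tpi1 in unstimulated cells had 84.6 and 113 CPM (knockout-labelled, niacin), 154, 99.3 and 93.5 CPM (knockout-labelled, no niacin), 193, 90.6 and 75.0 CPM (wild-type-labelled, niacin) and 204, 112 and 118 CPM (wild-type-labelled, no niacin). Tpi1 had the largest change of the genes that are the sole member of their step, 5.08 ± 0.38, 4.86 ± 0.31, 4.95 ± 0.31 and 4.55 ± 0.31 (adjusted p at most 2.84e-09). Gapdh encodes glyceraldehyde-3-phosphate dehydrogenase, the step that makes NADH (ENSMUSG00000057666, chromosome 6, 125161715 to 125166467). Gapdh had 4846, 4674 and 4755 CPM in stimulated knockout-labelled cells with niacin and 5275, 4825 and 4896 CPM without it, and 5969, 5918 and 5040.4 CPM in stimulated wild-type-labelled cells with niacin and 5617, 4897 and 5030.0 CPM without it. Gapdh in unstimulated cells had 312 and 407 CPM (knockout-labelled, niacin), 539, 354 and 417 CPM (knockout-labelled, no niacin), 599, 335 and 272 CPM (wild-type-labelled, niacin) and 669.6, 382 and 367 CPM (wild-type-labelled, no niacin). The changes of Gapdh were 3.73 ± 0.31, 3.52 ± 0.26, 3.81 ± 0.26 and 3.45 ± 0.26 (adjusted p at most 1.38e-08). It has 175 near-identical copies in the annotation, which took 4.50 to 8.65% of the counts of the gene and its copies in 22 libraries and 9.94% in unstimulated knockout-labelled library 3.

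Pgk1 encodes phosphoglycerate kinase, the first ATP-yielding step (ENSMUSG00000062070, chromosome X, 106187100 to 106203699). Pgk1 had 1047, 1006 and 875 CPM in stimulated knockout-labelled cells with niacin and 1078, 961 and 1039 CPM without it, and 905, 1007 and 1117 CPM in stimulated wild-type-labelled cells with niacin and 1076, 1052 and 1083 CPM without it. Pgk1 in unstimulated cells had 46.2 and 58.2 CPM (knockout-labelled, niacin), 74.4, 54.0 and 24.1 CPM (knockout-labelled, no niacin), 79.4, 54.6 and 44.9 CPM (wild-type-labelled, niacin) and 86.6, 63.1 and 60.2 CPM (wild-type-labelled, no niacin). Pgk1 changed by 4.22 ± 0.35, 4.33 ± 0.30, 4.08 ± 0.29 and 3.94 ± 0.29 (adjusted p at most 1.35e-08). Pgam1 encodes the mutase that moves the phosphate (ENSMUSG00000011752, chromosome 19). Pgam1 had 287, 299.7 and 270.2 CPM in stimulated knockout-labelled cells with niacin and 286, 273 and 286 CPM without it, and 325, 305 and 287 CPM in stimulated wild-type-labelled cells with niacin and 309.7, 296 and 305 CPM without it. Pgam1 in unstimulated cells had 21.0 and 25.3 CPM (knockout-labelled, niacin), 26.5, 22.7 and 16.9 CPM (knockout-labelled, no niacin), 30.4, 20.9 and 17.9 CPM (wild-type-labelled, niacin) and 35.9, 23.7 and 24.5 CPM (wild-type-labelled, no niacin). Its changes were 3.62 ± 0.24, 3.67 ± 0.20, 3.73 ± 0.20 and 3.43 ± 0.20 (adjusted p at most 6.64e-10), and unstimulated knockout-labelled library 3 was the lowest of the 11 unstimulated libraries for both Pgk1 and Pgam1.

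Enolase and pyruvate kinase make phosphoenolpyruvate and pyruvate. Eno1, the widely expressed enolase, carried 97.5 to 98.6% of the step per kb in stimulated and 95.8 to 97.8% in unstimulated libraries (ENSMUSG00000063524, chromosome 4, 150236721 to 150248879). Eno1 had 6213, 6175 and 6085 CPM in stimulated knockout-labelled cells with niacin and 6064, 5952 and 6319.5 CPM without it, and 7137, 6986 and 5809 CPM in stimulated wild-type-labelled cells with niacin and 5723, 5741 and 5978 CPM without it. Eno1 in unstimulated cells had 857 and 969 CPM (knockout-labelled, niacin), 1044, 857 and 1057 CPM (knockout-labelled, no niacin), 1056, 799.9 and 812 CPM (wild-type-labelled, niacin) and 1195, 992 and 806 CPM (wild-type-labelled, no niacin). Eno1 changed by 2.75 ± 0.17, 2.63 ± 0.14, 2.90 ± 0.14 and 2.54 ± 0.14 (adjusted p at most 2.25e-10). Eno3, the muscle enolase, also rose, at 26.8 to 47.8 CPM (median 36.9) in the 12 stimulated libraries, against 7.53 to 11.6 CPM (median 10.2) in the 11 unstimulated ones and changes of 1.82 ± 0.22, 2.23 ± 0.19, 1.94 ± 0.19 and 1.64 ± 0.19. Eno2, the neuronal enolase, was called only in wild-type-labelled cells (changes 1.08 ± 0.83, 1.32 ± 0.71, 1.95 ± 0.71 and 2.27 ± 0.72, adjusted p 0.285, 0.124, 0.0264 and 0.0148). Its call without niacin was lost without library 1 of the stimulated group (change 1.51, adjusted p = 0.112) or library 2 or 3 of the unstimulated group, and its change was 3.64 without library 1 of the unstimulated group. With niacin it was lost without library 1 or 3 of the stimulated or library 2 or 3 of the unstimulated group. Pkm encodes pyruvate kinase in both of its spliced forms, which gene counts do not separate (ENSMUSG00000032294, chromosome 9, 59656368 to 59679375). Pkm had 9188, 8876 and 9129 CPM in stimulated knockout-labelled cells with niacin and 9191, 9038 and 9394 CPM without it, and 11147, 10506 and 9407 CPM in stimulated wild-type-labelled cells with niacin and 9287, 8949.7 and 9042 CPM without it. Pkm in unstimulated cells had 864 and 961 CPM (knockout-labelled, niacin), 1104, 951 and 1182 CPM (knockout-labelled, no niacin), 1210.0, 866 and 796 CPM (wild-type-labelled, niacin) and 1439, 1144 and 977 CPM (wild-type-labelled, no niacin). Its changes were 3.31 ± 0.18, 3.09 ± 0.15, 3.43 ± 0.16 and 2.94 ± 0.15 (adjusted p at most 4.91e-11).

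Ldha, whose product converts pyruvate to lactate, had the highest level per length of the 39 genes in every group (ENSMUSG00000063229, chromosome 7, 46841475 to 46855627). Ldha had 9846, 9832 and 9890.0 CPM in stimulated knockout-labelled cells with niacin and 9819.8, 9759 and 10336 CPM without it, and 9756, 10241 and 9242 CPM in stimulated wild-type-labelled cells with niacin and 8854, 9096 and 9559.6 CPM without it. Ldha in unstimulated cells had 849 and 968 CPM (knockout-labelled, niacin), 1144, 938 and 886 CPM (knockout-labelled, no niacin), 1288, 899 and 776 CPM (wild-type-labelled, niacin) and 1410.1, 1095 and 984 CPM (wild-type-labelled, no niacin). Ldha changed by 3.44 ± 0.20, 3.33 ± 0.17, 3.30 ± 0.17 and 2.98 ± 0.16 (adjusted p at most 7.26e-11). Ldhb, the heart-type subunit, fell in 2 of the 4 comparisons, at 17.8 to 26.1 CPM (median 21.9) in the 12 stimulated libraries, against 13.4 to 37.7 CPM (median 30.3) in the 11 unstimulated ones. Its changes were -0.61 ± 0.23, -0.17 ± 0.21, -0.43 ± 0.21 and -0.62 ± 0.21 (adjusted p 0.0311, 0.508, 0.0878 and 0.0184), calls with niacin in knockout-labelled and without it in wild-type-labelled cells. The first was lost without library 2 or 3 of either group (adjusted p up to 0.156), and the second without library 2 of either (up to 0.0801). Ldhb held 0.383 to 0.535% of the step per kb in stimulated libraries, against 3.10 to 8.42% in unstimulated ones.

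Pyruvate dehydrogenase kinases switch off the complex that feeds pyruvate to the mitochondrion, and their 4 genes did not move together. Pdk1, which led the step in every group, did not pass in any comparison (ENSMUSG00000006494, chromosome 2, 71873224 to 71903858). Pdk1 had 415, 426 and 399.7 CPM in stimulated knockout-labelled cells with niacin and 517, 479 and 395 CPM without it, and 489.7, 437 and 566 CPM in stimulated wild-type-labelled cells with niacin and 550.5, 616 and 508 CPM without it. Pdk1 in unstimulated cells had 429.7 and 326 CPM (knockout-labelled, niacin), 413, 527 and 298 CPM (knockout-labelled, no niacin), 336, 451 and 369.8 CPM (wild-type-labelled, niacin) and 435, 553 and 556 CPM (wild-type-labelled, no niacin). The groups overlapped, the changes were 0.13 ± 0.20, 0.17 ± 0.18, 0.37 ± 0.18 and 0.12 ± 0.18, and the 95% intervals together spanned -0.29 to 0.74. Without unstimulated knockout-labelled library 3 Pdk1 was called in wild-type-labelled cells with niacin (0.37, adjusted p = 0.0359). Pdk3 rose, at 84.1 to 139 CPM (median 127) in the 12 stimulated libraries, against 28.5 to 45.5 CPM (median 32.8) in the 11 unstimulated ones and changes of 1.96 ± 0.21, 1.89 ± 0.18, 1.39 ± 0.18 and 1.88 ± 0.18 (adjusted p at most 2.70e-06). Pdk2 fell, with 2.46 to 15.8 CPM (median 7.45) in the 12 stimulated libraries, against 17.8 to 36.1 CPM (median 24.1) in the 11 unstimulated ones and changes of -2.30 ± 0.38, -2.27 ± 0.36, -1.22 ± 0.35 and -1.23 ± 0.35 (adjusted p 6.42e-05, 2.91e-05, 0.00599 and 0.00646). Without the first and second niacin libraries with wild-type label and stimulation the third Pdk2 call was lost (adjusted p = 0.0514). Per kb Pdk2 held 0.741 to 4.24% of the step in stimulated libraries against 7.36 to 18.8% in unstimulated ones, and Pdk3 32.9 to 50.4% against 12.4 to 26.0%.

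**Figure D2:**
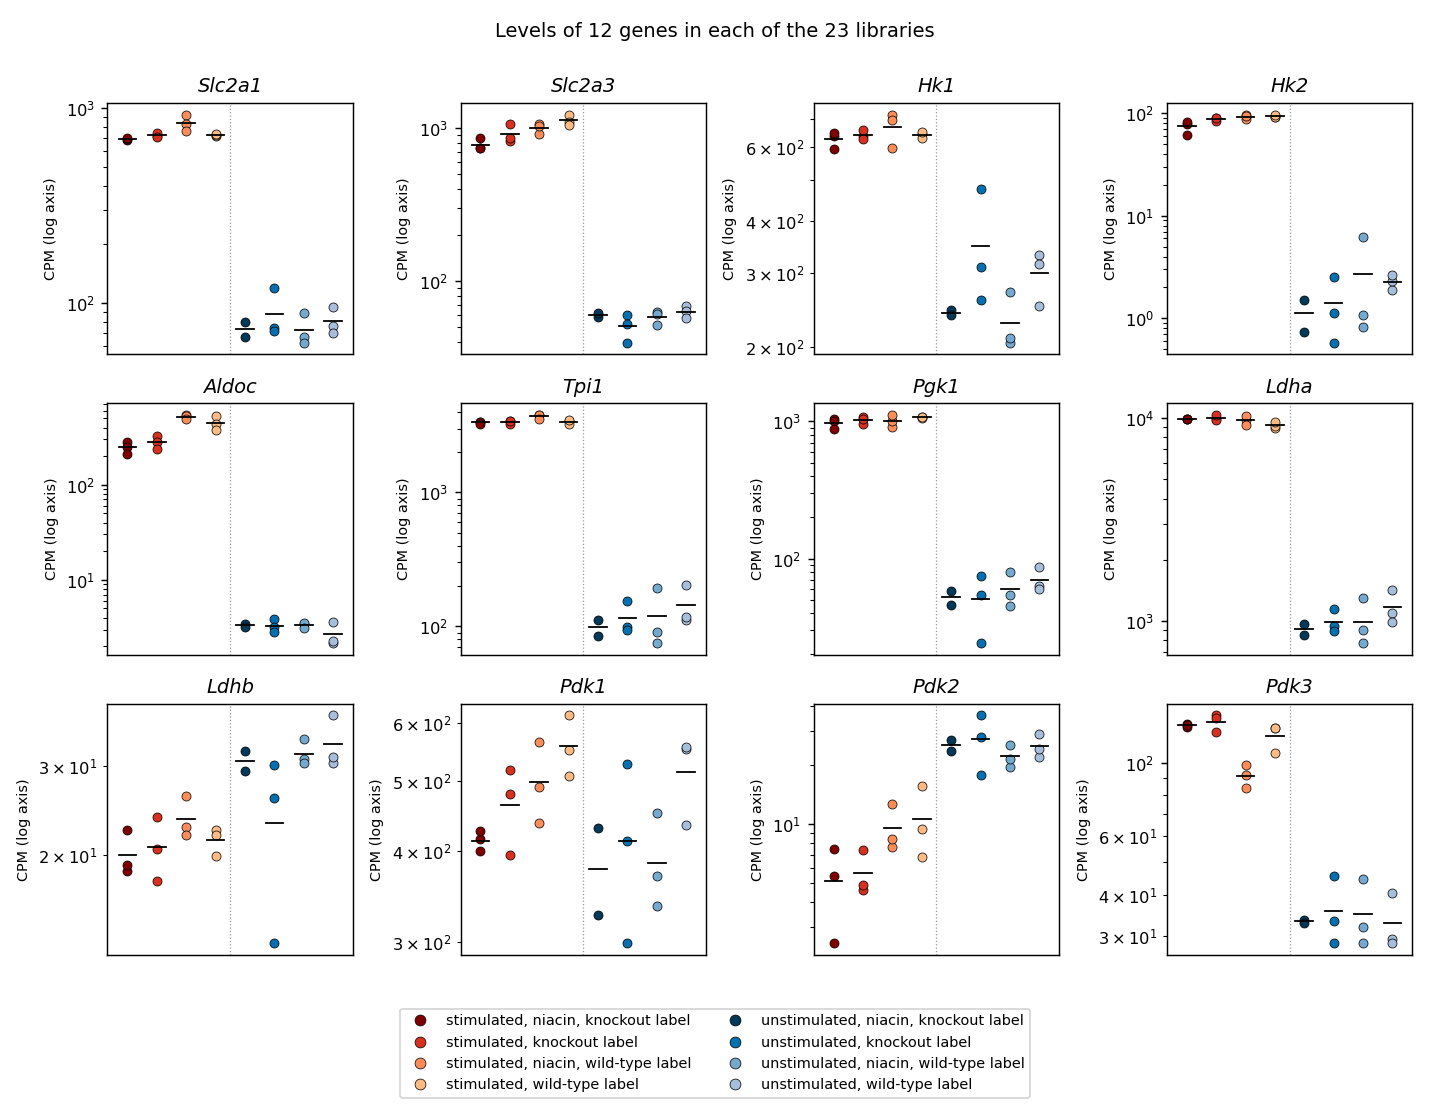
CPM of 12 genes in each of the 23 libraries on a log axis, stimulated groups left of the dotted line and unstimulated ones right of it, with black lines at group means. Ldha lies at 8854 to 10336 CPM (median 9789.6) in the 12 stimulated libraries, against 776 to 1410.1 CPM (median 968) in the 11 unstimulated ones, while Pdk1 overlaps and Pdk2 is lower in stimulated cells.

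The listed genes of the pyruvate dehydrogenase complex changed by 0.01 to 0.84 log2 with stimulation, and none was called in all 4 comparisons. Summed per kb they came to 87.9 to 113 CPM per kb in stimulated and 64.5 to 88.1 CPM per kb in unstimulated libraries. Pdha1, the catalytic alpha subunit of the complex (ENSMUSG00000031299, chromosome X, 160122209 to 160138413), rose in knockout-labelled cells. Pdha1 had 186, 183 and 185 CPM in stimulated knockout-labelled cells with niacin and 182, 164 and 179 CPM without it, and 152, 185 and 160.4 CPM in stimulated wild-type-labelled cells with niacin and 161, 189.7 and 169 CPM without it. Pdha1 in unstimulated cells had 126 and 118 CPM (knockout-labelled, niacin), 153, 122 and 85.1 CPM (knockout-labelled, no niacin), 134, 130.4 and 119.9 CPM (wild-type-labelled, niacin) and 158, 160.5 and 129 CPM (wild-type-labelled, no niacin). Its changes were 0.60 ± 0.18, 0.54 ± 0.16, 0.37 ± 0.16 and 0.22 ± 0.16 (adjusted p 0.00843, 0.00644, 0.0518 and 0.265). The call with niacin was lost without library 3 of the unstimulated group (adjusted p = 0.074), and that without niacin in a fit restricted to its own 2 groups (adjusted p = 0.13). Pdhb, the beta subunit, lay at 102 to 145 CPM (median 134) in the 12 stimulated libraries, against 66.3 to 126 CPM (median 117) in the 11 unstimulated ones (changes 0.19 ± 0.18, 0.46 ± 0.16, 0.01 ± 0.16 and 0.22 ± 0.16) and was called only in knockout-labelled cells without niacin, a call lost without library 1 of the stimulated or library 3 of the unstimulated group (adjusted p up to 0.0773). Dlat, the acetyltransferase, lay at 89.2 to 136 CPM (median 105) in the 12 stimulated libraries, against 59.1 to 119.8 CPM (median 68.7) in the 11 unstimulated ones, with changes of 0.84 ± 0.22, 0.38 ± 0.19, 0.50 ± 0.19 and 0.46 ± 0.19 and calls in the 2 comparisons with niacin. That in wild-type-labelled cells was lost without library 1, 2 or 3 of the stimulated or library 2 or 3 of the unstimulated group (adjusted p up to 0.105), and without the first 2 of these together (adjusted p = 0.245). Without unstimulated knockout-labelled library 3, where Dlat was highest of the 11, its change in knockout-labelled cells without niacin was 0.75 (adjusted p = 1.20e-04).

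Of the 3 genes of the oxidative pentose phosphate branch, which makes NADPH, Pgd and G6pdx rose throughout. Pgd, phosphogluconate dehydrogenase, lay at 219 to 302 CPM (median 266) in the 12 stimulated libraries, against 77.4 to 111 CPM (median 84.5) in the 11 unstimulated ones and changed by 1.82 ± 0.15, 1.55 ± 0.13, 1.63 ± 0.13 and 1.35 ± 0.13 (adjusted p at most 5.81e-08). G6pdx had 151, 146 and 173 CPM in stimulated knockout-labelled cells with niacin and 136, 159 and 155 CPM without it, and 102, 142 and 115 CPM in stimulated wild-type-labelled cells with niacin and 119, 129 and 134 CPM without it. G6pdx in unstimulated cells had 78.6 and 80.8 CPM (knockout-labelled, niacin), 84.7, 82.8 and 39.03 CPM (knockout-labelled, no niacin), 80.6, 67.9 and 71.0 CPM (wild-type-labelled, niacin) and 91.4, 91.1 and 73.7 CPM (wild-type-labelled, no niacin). G6pdx, the entry enzyme, changed by 0.97 ± 0.23, 1.12 ± 0.20, 0.71 ± 0.20 and 0.58 ± 0.20 (adjusted p 0.00176, 1.26e-04, 0.00634 and 0.0252). Its call in wild-type-labelled cells was lost with niacin without libraries 1 and 2 of the stimulated group (adjusted p = 0.093), and without niacin when library 2 or 3 of the stimulated or library 3 of the unstimulated group was left out (up to 0.109). G6pdx had the highest mean level per length of the branch in 6 groups and Pgls, 6-phosphogluconolactonase, in the other 2, namely stimulated wild-type-labelled cells with niacin and unstimulated knockout-labelled cells without it (ENSMUSG00000031400, chromosome X, 74409483 to 74429194; ENSMUSG00000031807, chromosome 8, 71592176 to 71601092). Pgls had 149, 163 and 157 CPM in stimulated knockout-labelled cells with niacin and 158, 140.2 and 163 CPM without it, and 289, 206 and 169.8 CPM in stimulated wild-type-labelled cells with niacin and 155, 146 and 160.1 CPM without it. Pgls in unstimulated cells had 69.3 and 78.9 CPM (knockout-labelled, niacin), 84.7, 76.3 and 284 CPM (knockout-labelled, no niacin), 81.4, 67.0 and 65.6 CPM (wild-type-labelled, niacin) and 92.0, 73.0 and 68.6 CPM (wild-type-labelled, no niacin). Unstimulated knockout-labelled library 3 and the first and second niacin libraries with wild-type label and stimulation stood above their groups. The changes of Pgls were 1.08 ± 0.37, 0.06 ± 0.32, 1.64 ± 0.33 and 0.98 ± 0.32 (adjusted p 0.0207, 0.895, 3.24e-04 and 0.0181). Without the first of these libraries the second change was 0.93 (adjusted p = 1.72e-04). The call with niacin in knockout-labelled cells was lost without either unstimulated library (adjusted p up to 0.131), and that in wild-type-labelled cells without niacin was lost without library 2 or 3 of the unstimulated group (up to 0.0689).

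In the non-oxidative branch, which links pentoses back to glycolysis, Tkt rose throughout and Taldo1 in 3 of 4 comparisons. Tkt, transketolase, lay at 715 to 945 CPM (median 792) in the 12 stimulated libraries, against 180.0 to 326 CPM (median 225) in the 11 unstimulated ones and changed by 1.94 ± 0.21, 1.598 ± 0.18, 1.995 ± 0.18 and 1.59 ± 0.18 (adjusted p at most 4.77e-07). Taldo1, transaldolase, had the highest level per length of the branch (ENSMUSG00000025503, chromosome 7, 141392199 to 141402968). Taldo1 had 351, 353 and 399 CPM in stimulated knockout-labelled cells with niacin and 323, 348 and 339 CPM without it, and 372, 389 and 272 CPM in stimulated wild-type-labelled cells with niacin and 283, 279.8 and 286 CPM without it. Taldo1 in unstimulated cells had 199.7 and 243 CPM (knockout-labelled, niacin), 241, 215 and 266 CPM (knockout-labelled, no niacin), 245, 199 and 205 CPM (wild-type-labelled, niacin) and 289.9, 244 and 205 CPM (wild-type-labelled, no niacin). Taldo1 changed by 0.73 ± 0.17, 0.48 ± 0.15, 0.67 ± 0.15 and 0.20 ± 0.15 (adjusted p 0.0012, 0.0091, 7.35e-04 and 0.271), and without the first and second niacin libraries with wild-type label and stimulation the call there was lost (adjusted p = 0.204). Rpia, ribose-5-phosphate isomerase, lay at 5.15 to 10.05 CPM (median 6.93) in the 12 stimulated libraries, against 1.75 to 5.91 CPM (median 4.38) in the 11 unstimulated ones and was called in wild-type-labelled cells (changes 0.76 ± 0.32, 0.32 ± 0.28, 0.92 ± 0.28 and 0.99 ± 0.28). Rpe, the epimerase, lay at 26.8 to 62.5 CPM (median 54.9) in the 12 stimulated libraries, against 21.5 to 57.6 CPM (median 48.9) in the 11 unstimulated ones. Its calls had opposite signs, up in knockout-labelled cells without niacin and down in wild-type-labelled cells with it (changes 0.29 ± 0.28, 0.64 ± 0.25, -0.62 ± 0.25 and 0.14 ± 0.25; adjusted p 0.401, 0.0359, 0.0407 and 0.652). The first was lost without any 1 of the 3 stimulated libraries or without library 2 or 3 of the unstimulated group (adjusted p up to 0.157), with RLE factors (0.0546) and in a fit restricted to its own 2 groups (0.148). The second was lost without library 1 or 2 of either group (adjusted p up to 0.162) and with the replicate number as a block (0.0519). Rpe overlaps Kansl1l, and the strand setting of the counting was not stated in the labels, so its reads are uncertain.

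The make-up of several steps differed between stimulated and unstimulated libraries. In shares per kb, ranges over the 12 stimulated and 11 unstimulated libraries did not overlap for the glucose transporters, the hexokinases, the aldolases, the lactate dehydrogenases, Pfkfb2, Pfkfb3, Pdk2 and Pdk3. They overlapped for the phosphofructokinases, the enolases, Pfkfb1, Pfkfb4 and Pdk1. These shares are descriptions over chosen genes and carry no test.

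**Figure D3:**
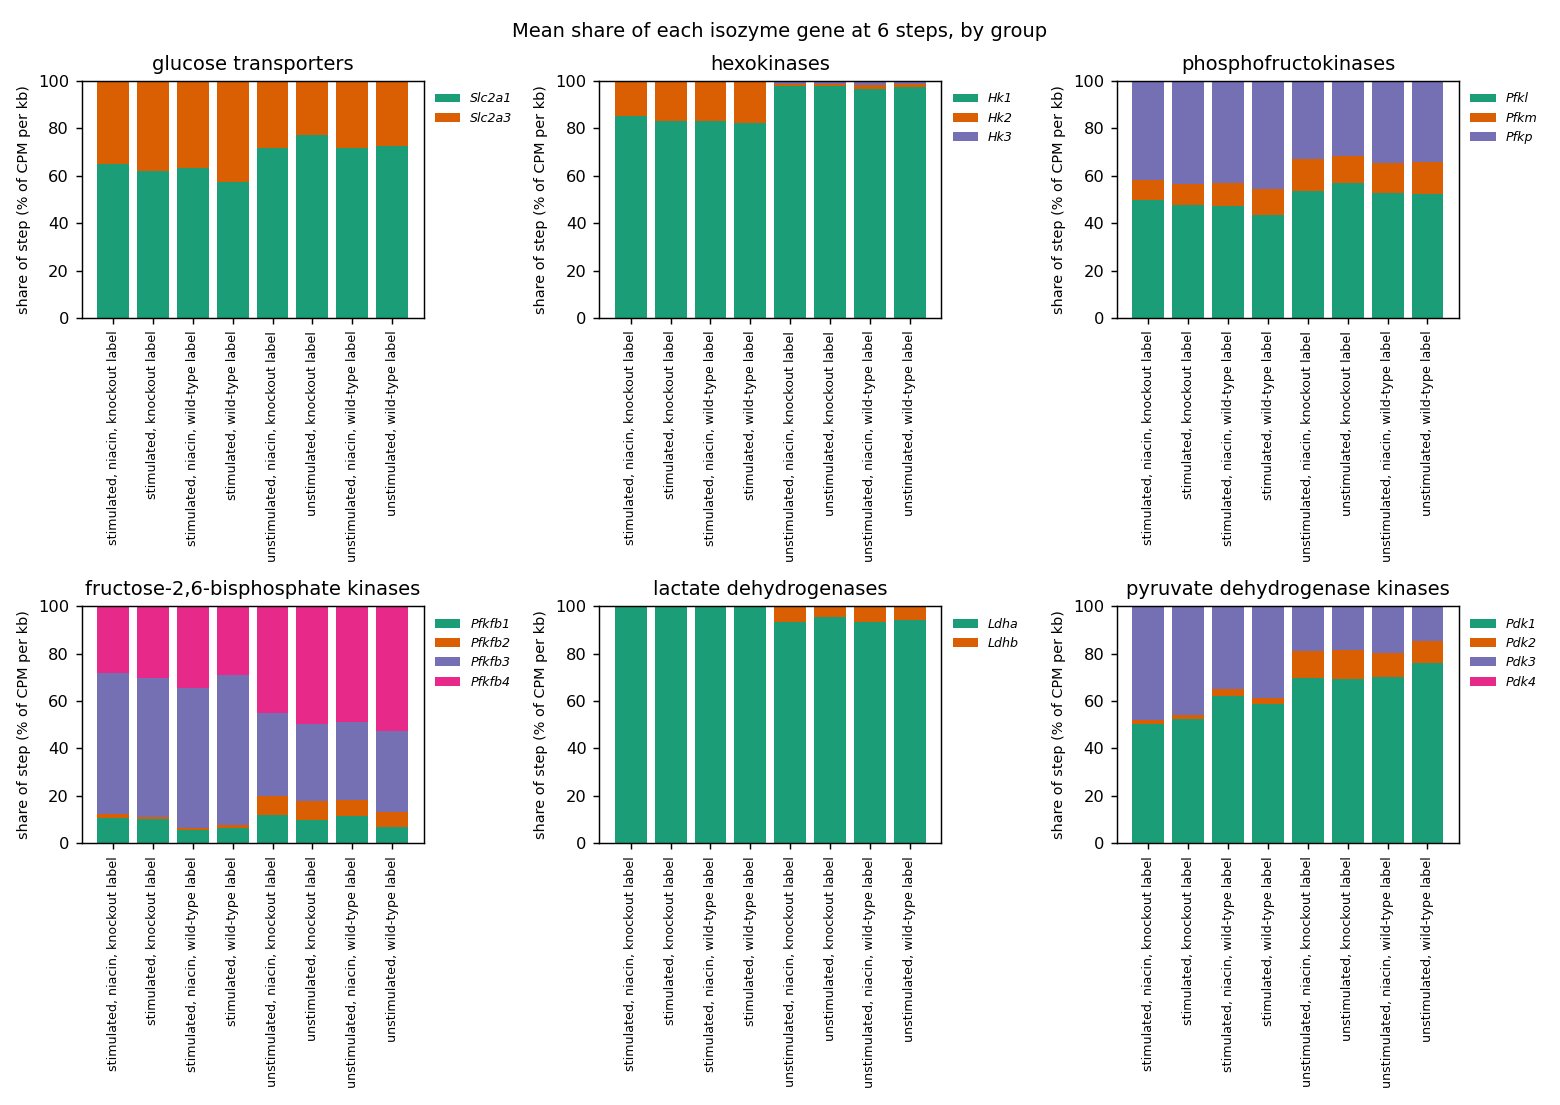
Mean share (percent of CPM per kb) of each isozyme gene at 6 steps, as stacked bars for the 8 groups, stimulated groups to the left. Hk2, Slc2a3, Pfkfb3 and Pdk3 take larger shares in stimulated groups, and Ldhb is visible only in unstimulated ones.

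Niacin moved no gene of the set past the test. edgeR called 0 of the 38 in stimulated knockout-labelled (0.00592% of all genes), unstimulated knockout-labelled (0%), stimulated wild-type-labelled (0%) and unstimulated wild-type-labelled cells (0%). Averaged over both labels it called 0 in stimulated and 0 in unstimulated cells (0.0948% of all genes in each). At an unadjusted p under 0.05 there were 0, 2, 2 and 4 genes in the 4 comparisons and 0 and 5 in the averages. No share of all genes was counted at that unadjusted threshold, here or in later paragraphs, so such numbers are descriptions only. DESeq2 also called 0 in each comparison and average. With quality weights, voom called 0, 0, 5, 2, 1 and 1 of the 38, where it called 0.0474%, 0.0237%, 10.8%, 1.69%, 6.59% and 1.14% of all genes. The smallest adjusted p by edgeR was that of Hk1 in the unstimulated average (-0.46 ± 0.13 log2, 95% interval -0.73 to -0.20, adjusted p = 0.301). The 95% intervals of the log2 fold change lay within 1 of 0 for 35 of 38 genes in the stimulated and 33 of 38 in the unstimulated average.

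Hk1 lay lower with niacin in unstimulated knockout-labelled cells without overlap, at 244 and 238 CPM with niacin and 310.1, 259 and 476 CPM without, and so did Pgd; 2 of 38 genes lay lower (7.16% of all genes) and 0 higher (9.39%). In wild-type-labelled unstimulated cells Hk1 had 269.8, 204 and 209.8 CPM with niacin and 332, 316 and 250.01 CPM without, which overlap, and 0 genes were separated (4.43% higher and 5.22% lower over all genes). Without unstimulated knockout-labelled library 3 the averaged change of Hk1 was -0.31. Pgls changed by -0.997 ± 0.37 with niacin in unstimulated knockout-labelled cells, and by -0.12 without that library.

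In stimulated knockout-labelled cells Pdha1 and Taldo1 lay higher with niacin and Gpi1, Hk2, Pfkp and Slc2a1 lower, without overlap (7% and 6.82% of all genes). In stimulated wild-type-labelled cells Pfkl, Pgls, Pkm, Slc2a1 and Tpi1 lay higher and Pdk3 lower (7.41% and 6.78%). Slc2a1 had 689, 696 and 705 CPM with niacin and 723, 747 and 710.4 CPM without in knockout-labelled cells. In wild-type-labelled cells it had 926, 827 and 761 CPM with niacin and 718, 729 and 736 CPM without. The changes of Slc2a1 were -0.06 ± 0.17 and 0.20 ± 0.17 log2, and the test of their difference did not pass (-0.27 ± 0.24, 95% interval -0.77 to 0.23, adjusted p = 0.986). The first and second niacin libraries with wild-type label and stimulation, low in mitochondrial counts, were also the highest for Slc2a1, Pgls, Pkm and Pfkl, and their part in these values was not tested.

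**Figure D4:**
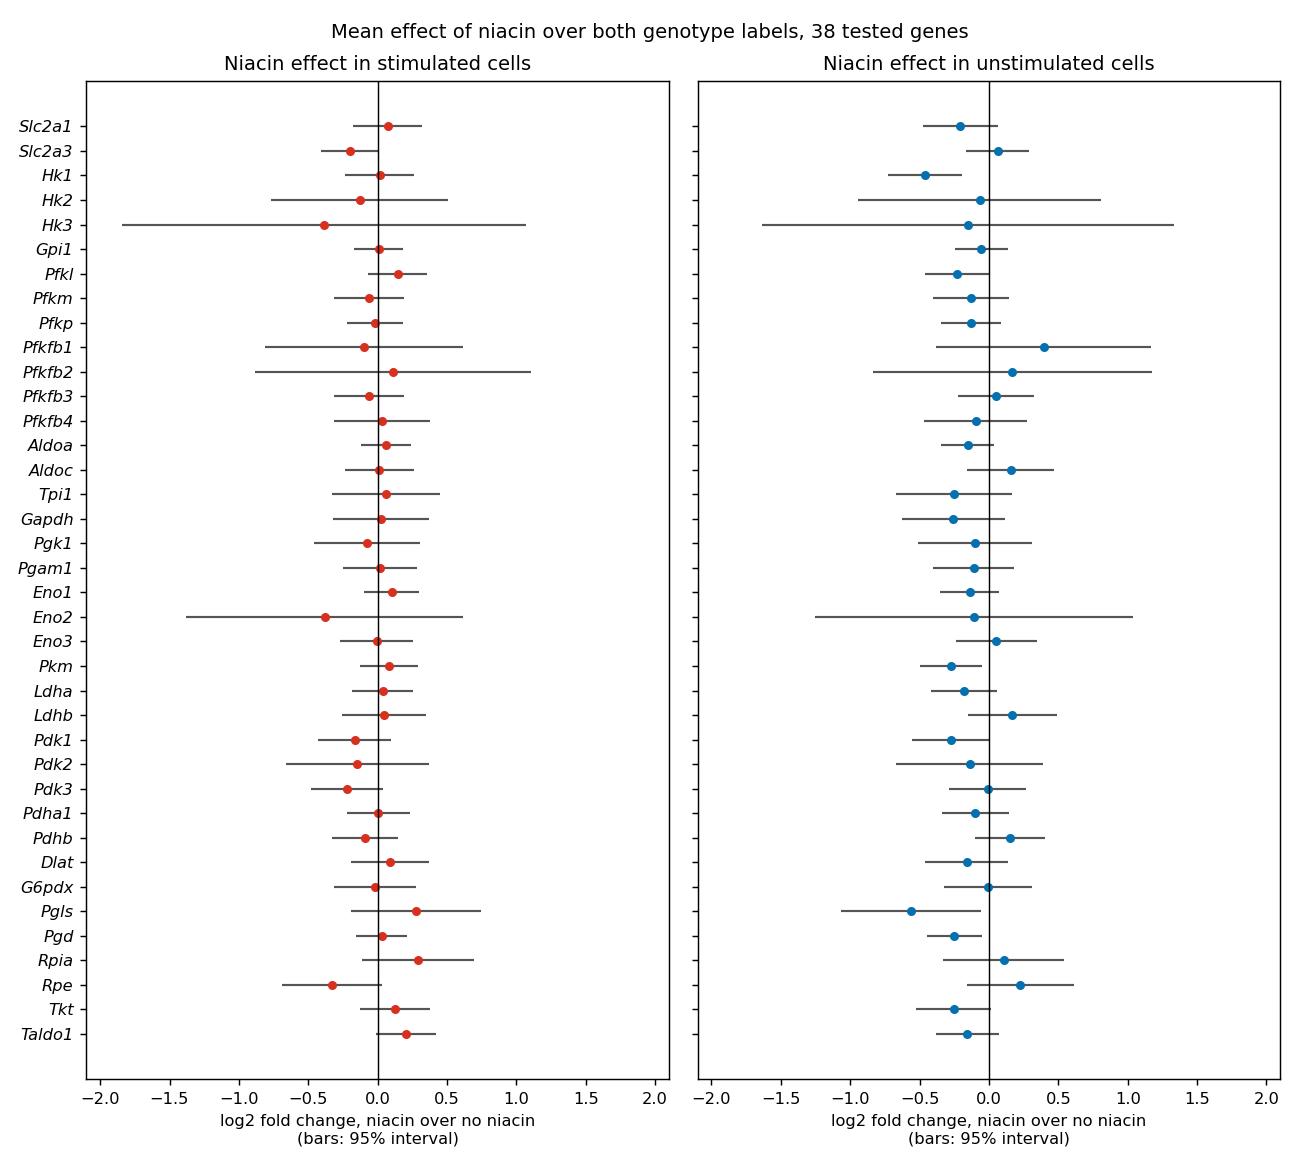
Mean log2 fold change (niacin over no niacin, averaged over both labels) of the 38 genes with 95% intervals, stimulated cells left and unstimulated cells right. The interval of Hk1 in unstimulated cells runs from -0.73 to -0.20, and the widest intervals are those of low genes such as Hk3 and Eno2.

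No gene of the set passed a test of a difference between effects. For the stimulation effect with niacin minus without, edgeR called 0 (0% of all genes), with 8 at an unadjusted p under 0.05. The lowest adjusted p was shared by Hk1 (0.47 ± 0.17) and Pgls (0.84 ± 0.33, adjusted p = 0.405), which was 0.40 without unstimulated knockout-labelled library 3. For the stimulation effect in knockout-labelled minus wild-type-labelled cells without niacin it called 0 (0.00592%), with 3 unadjusted, and the lowest p was that of Aldoc (-0.97 ± 0.27, adjusted p = 0.419). For the niacin effect in stimulated cells, knockout-labelled minus wild-type-labelled, it called 0 (0%), with 0 unadjusted. DESeq2 called 0 in all 3 and voom with quality weights called 1, 0 and 0, where it called 1.88%, 0.00592% and 1.1% of all genes.

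By genotype label, Aldoc was the 1 gene of the set that passed. It was lower in stimulated knockout-labelled than wild-type-labelled cells with niacin, where 1.44% of all genes passed (0.865% down and 0.575% up). Aldoc had 284, 248.8 and 212 CPM in knockout-labelled and 544, 526 and 489.6 CPM in wild-type-labelled cells, with no overlap, and changed by -1.07 ± 0.17 log2 (adjusted p = 0.0045). Without niacin it had 328, 284 and 239 CPM in knockout-labelled and 528, 438 and 375 CPM in wild-type-labelled cells, again with no overlap, but -0.65 ± 0.17 did not pass by edgeR (adjusted p = 0.215). Without the first and second niacin libraries with wild-type label and stimulation the change was -1.003 and the call was lost (adjusted p = 0.188), 1 library being left in that group. In unstimulated cells, where Aldoc was low, the changes were -0.01 ± 0.22 with niacin and 0.32 ± 0.21 without.

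The other genes gave smaller or less steady label differences. In stimulated cells with niacin 17 of 38 genes lay lower in all knockout-labelled than in all wild-type-labelled libraries (14% of all genes) and 5 lay higher (12.5%), with a median change of -0.17 against -0.02 over all genes. Aldoa had 5718, 5609 and 5668 CPM in knockout-labelled and 7949.6, 7773 and 6741 CPM in wild-type-labelled libraries (-0.40 ± 0.12 log2, adjusted p = 0.0847). Pdk3, which lay higher, had 131, 128 and 130.2 CPM in knockout-labelled and 84.1, 91.5 and 98.4 CPM in wild-type-labelled libraries (0.50 ± 0.18 log2, adjusted p = 0.128). Leaving unstimulated knockout-labelled library 3 out of the fit gave 10 called genes, Aldoc among them (10.5% of all genes then tested), and leaving out stimulated wild-type-labelled library 3 with niacin gave 4, again with Aldoc (6.11%). Without libraries 1 and 2 of that group Aldoa changed by -0.28 and Pdk3 by 0.37, and 0 genes passed.

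In stimulated cells without niacin 8 genes lay lower (11.2% of all genes) and 6 higher (9.34%) in knockout-labelled cells, and edgeR called 0 (0.113% of all genes), with 5 at an unadjusted p under 0.05. Aldoa, Aldoc, Gpi1, Hk2, Pfkfb3, Pfkm and Pfkp lay lower without overlap in both stimulated comparisons, and G6pdx lay higher in both. The share of all genes that did so in both was not counted, so this is a description only. Pfkm had 86.8, 71.0 and 72.5 CPM in knockout-labelled and 104, 103 and 91.8 CPM in wild-type-labelled cells without niacin (-0.38 ± 0.17), and 74.6, 65.5 and 69.2 CPM and 118, 91.7 and 92.6 CPM with it (-0.53 ± 0.17). In unstimulated cells edgeR called 0 with niacin (0.0355%), with 0 unadjusted, and 0 without it (0.0415%), with 4 unadjusted, led by Pgls (0.93 ± 0.32 log2), whose change was 0.05 without library 3 of the knockout-labelled cells. Ldhb lay lower without niacin (4.12% of all genes) and Eno3 higher with it (7.3%), where 0 genes lay lower (8.02%). Over the mean of the 4 conditions edgeR called 0 (0.326%), with 11 unadjusted. The 0.326% is the share of all genes after adjustment, and no share was counted for the unadjusted threshold. Aldoc came nearest in the mean (-0.35 ± 0.10, adjusted p = 0.153). In unstimulated, unstimulated with niacin, stimulated, stimulated with niacin and the mean, DESeq2 called 0, 0, 1, 5 and 3 of the 38, against 0.13%, 0.107%, 0.604%, 6.65% and 1.52% of all genes. In the same order voom with quality weights called 0, 0, 1, 15 and 5, against 0.0415%, 0.184%, 1%, 20.2% and 4.99% of all genes.

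**Figure D5:**
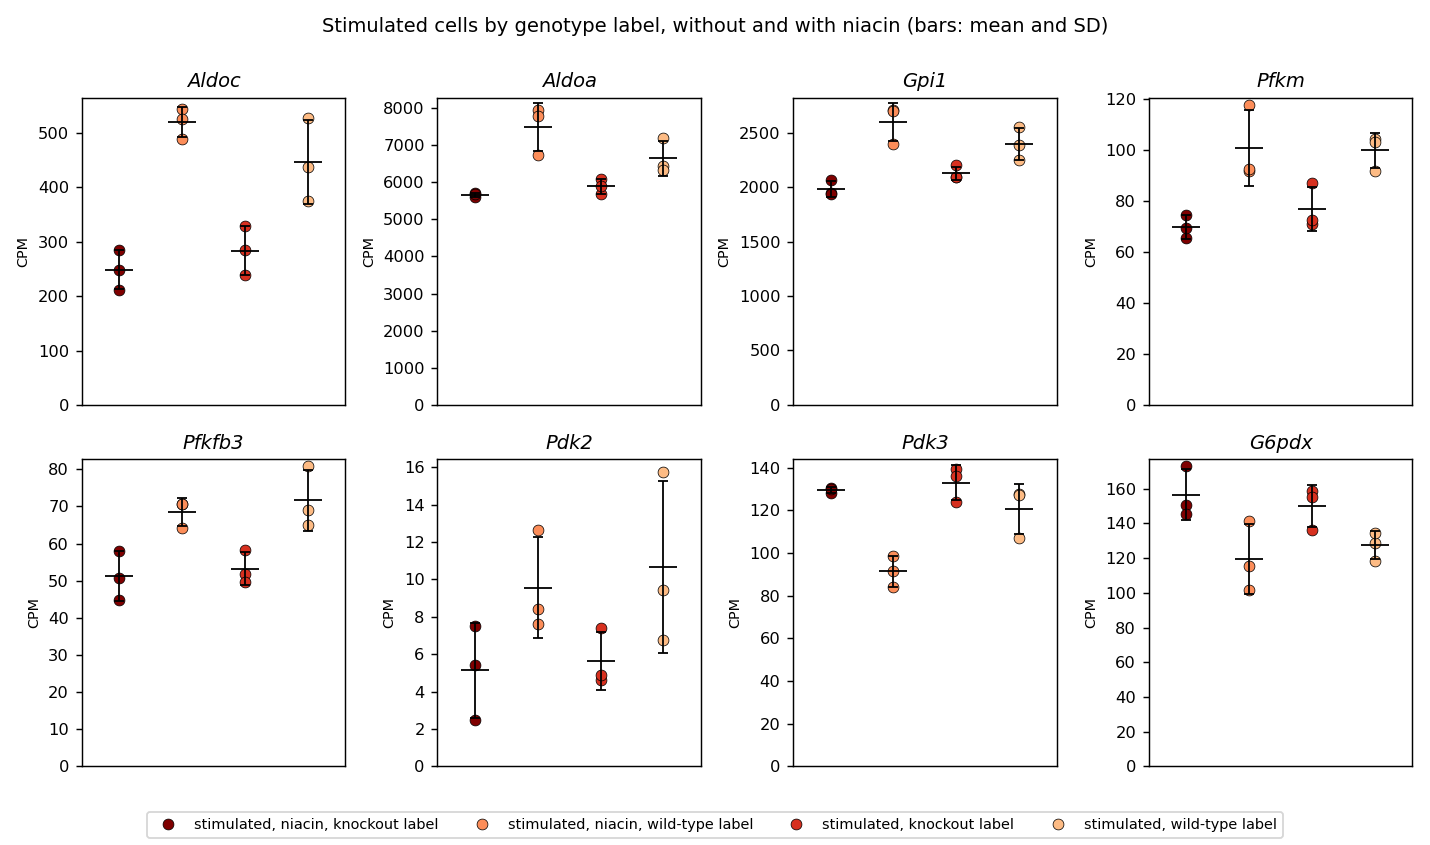
CPM of 8 genes in the 4 stimulated groups, a point per library with the mean and SD, knockout-labelled left of wild-type-labelled within each niacin condition. Aldoc lies lower in knockout-labelled cells in both conditions, and its difference passed the edgeR test with niacin only. The other 7 genes did not pass, and they were picked after their values were seen.

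Other genes of the pathway, were a list of 49, of which 32 were tested. With stimulation 11 went up and 4 down under the knockout label with niacin (24.5% and 25.3% of all genes), and 11 and 5 without it (25.2% and 27.5%). In wild-type-labelled cells 11 rose and 8 fell with niacin (26% and 26.6%), and 10 rose and 6 fell without it (23.4% and 21.7%). Pcx, pyruvate carboxylase, lay at 307 to 474 CPM (median 344) in the 12 stimulated libraries, against 9.80 to 18.0 CPM (median 13.3) in the 11 unstimulated ones and changed by 4.61 ± 0.24, 4.51 ± 0.20, 4.98 ± 0.20 and 4.76 ± 0.20. Galk1, galactokinase, lay at 648 to 983 CPM (median 744) in the 12 stimulated libraries, against 30.5 to 85.4 CPM (median 39.4) in the 11 unstimulated ones and changed by 4.13 ± 0.32, 3.82 ± 0.27, 4.38 ± 0.27 and 4.19 ± 0.27. Slc2a6, a transporter of lysosomes, rose in 3 of 4 comparisons and Ldhd, D-lactate dehydrogenase, fell in 3. By label, Gpd2, the mitochondrial glycerol phosphate dehydrogenase, was higher in stimulated cells with niacin (0.84 ± 0.20, adjusted p = 0.0426), a call lost in 14 of the 23 fits that leave out 1 library (adjusted p up to 0.217).

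Of 12 regulators, 11 were tested, and with stimulation 6 went up and 2 down under the knockout label with niacin, 5 and 3 without, and 5 and 2 in each of the wild-type-labelled comparisons. In the 4 comparisons 23.4 to 26% of all genes rose and 21.7 to 27.5% fell, so with 11 genes these counts are read as a description only. Myc, a transcription factor that drives glycolytic genes in activated T cells, lay at 581 to 908 CPM (median 679) in the 12 stimulated libraries, against 177 to 448 CPM (median 219.7) in the 11 unstimulated ones and changed by 1.65 ± 0.25, 1.23 ± 0.21, 1.92 ± 0.22 and 1.58 ± 0.22. Irf4, which sustains glycolysis after antigen receptor signals, changed by 3.38 ± 0.41, 3.06 ± 0.35, 2.49 ± 0.34 and 2.20 ± 0.33. Txnip, whose product lowers glucose uptake, fell by 1.82, 1.61, 0.87 and 1.08 on the log2 scale. Mlxip, which encodes the glucose-sensing factor MondoA, changed by -1.08 ± 0.21, -1.35 ± 0.20, -0.53 ± 0.19 and -0.85 ± 0.19. By label Txnip was lower in stimulated cells with niacin, at 289, 264 and 225 CPM in knockout-labelled and 525, 520.0 and 464 CPM in wild-type-labelled libraries (-0.96 ± 0.18 log2, adjusted p = 0.013). That call was lost in 4 of the 23 fits that leave out 1 library (adjusted p up to 0.0835). Without the first and second of the wild-type-labelled ones, which leaves 1, the change was -0.86. A group of 1 library cannot decide whether the call holds. Without niacin Txnip had 293, 269 and 221 CPM in knockout-labelled and 499, 457 and 369 CPM in wild-type-labelled stimulated libraries, with no call. Over the mean of the 4 conditions Txnip was called (-0.49 ± 0.09, adjusted p = 0.019), a call lost in 2 of the 23 fits (up to 0.115). Without the first and second niacin libraries with wild-type label and stimulation, this mean change was -0.46, again with 1 library left in that group. Hif1a, the oxygen-regulated subunit of hypoxia-inducible factor, had 368, 326 and 317 CPM with niacin and 445, 433 and 446 CPM without in stimulated knockout-labelled cells. With wild-type label and stimulation it had 214, 204 and 289.5 CPM with niacin and 374, 412 and 406 CPM without. All 6 libraries with niacin lay below those without under the same label, and lowest were the first and second with wild-type label, which are low in mitochondrial counts. The change in the stimulated average was -0.57 ± 0.11 (adjusted p = 0.0486). The call was lost in 18 of the 23 fits that leave out 1 library (adjusted p up to 0.168), and without those 2 the change was -0.43 (adjusted p = 0.694).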

How the data were processed

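Deposited gene counts of 23 libraries were analysed. Per the labels' protocols, libraries were made with SMART-seq V4 chemistry for low input and read from both ends. The submitters' processing notes name Trimmomatic 0.38, STAR 2.7.0e and featureCounts 1.6.3. These counts are whole reads per gene as the authors deposited them, with no normalization. The annotation release and the strand setting were not stated there. The 39 genes and all gene lists were chosen with earlier results of these data known. All 23 libraries were fitted in 1 model with a mean per group by edgeR 4.0.16 (quasi-likelihood test, TMM factors), after a filter with a minimum count of 10 that left 16882 genes, with Benjamini-Hochberg adjustment within each of 18 comparisons and a threshold of 0.05. Standard errors are the size of the log2 fold change over the root of F. All 39 genes were described. Values in every library were given for genes leading their step per length in any group or called by niacin or label, and other lists were shown by counts with their largest called changes. The edgeR procedure was run on simulated counts for 1 comparison, stimulation in wild-type-labelled cells without niacin. The niacin, label and difference tests were not checked in that way. DESeq2 1.42.0, limma 3.58.1 (voom with quality weights), other factors, no filter, a replicate block, a fit of the compared groups only and omitted libraries were alternatives. Levels per kb used the table's exon lengths, and near-identical copies were found with BLAST 2.17.0.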

Additional observations from a re-analysis of the deposited data

How the results depend on the processing

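No value changed sign past the threshold under any alternative run. Counts of called genes among the 38 that moved were as follows. With voom and quality weights they were 2 and 5 for niacin in unstimulated and stimulated wild-type-labelled cells, 1 and 1 for the stimulated and unstimulated niacin averages, 1 for the stimulation effect with niacin minus without, and 1, 15 and 5 by label in stimulated cells, stimulated cells with niacin and the mean of 4 conditions. With no filter on low counts, which tested all 39, they were 1 for niacin in unstimulated knockout-labelled cells (1.38% of all genes) and 1 for the unstimulated niacin average (1.09%). They were 1 for the stimulation effect with niacin minus without (1.7%) and 2 for the difference of the stimulation effect by label (1.5%). With no filter they were also 1, 1, 1, 3 and 2 by label in unstimulated cells, unstimulated cells with niacin, stimulated cells, stimulated cells with niacin and the mean. Of all genes 2.22%, 0.0757%, 0.685%, 3.75% and 1.14% passed there in the same order. With DESeq2 they were 1, 5 and 3 by label in stimulated cells, stimulated cells with niacin and the mean. By label in stimulated cells with niacin, the fit of the compared groups only called 3 (3.24% of all genes then tested).

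Leaving out each library in turn gave 1 to 10 called genes by label in stimulated cells with niacin, 0 to 1 in unstimulated cells (1 without library 2 of the knockout-labelled group) and 0 to 1 for the mean of 4 conditions (1 without unstimulated wild-type-labelled niacin library 1). It gave 26 to 30, 26 to 29, 28 to 34 and 25 to 30 calls for stimulation in knockout-labelled cells with and without niacin and wild-type-labelled cells with and without niacin, and 0 for every other comparison. For stimulation in that order, DESeq2 called 31, 29, 31 and 29, RLE factors 29, 27, 30 and 28, no filter 30, 28, 29 and 29, the compared groups only 31, 25, 34 and 31, voom 32, 31, 33 and 34, and the fit without stimulated wild-type-labelled niacin libraries 1 and 2 gave 29, 28, 25 and 29. Stimulation calls lost, with their adjusted p, were as follows. With only the compared groups they were Pdha1 (0.13), Pdhb (0.225), Rpe (0.148) and Taldo1 (0.0566) in knockout-labelled cells without niacin. With no filter they were Pdhb there (0.0818) and Rpia (0.0562) and Dlat (0.0515) in wild-type-labelled cells with niacin. DESeq2 (0.0504) and RLE factors (0.0592) also lost that of Dlat, and RLE factors that of Rpe in knockout-labelled cells without niacin (0.0546).

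Over all genes, the deviations of libraries of different groups had a median r of 0.019 over 77 same-numbered pairs and -0.004 over 154 others. The numbers were therefore not used as pairs. Over the 38 genes, a check added after seeing the data, these medians were 0.093 and -0.043. They went the other way for pairs of stimulated libraries, at -0.213 (18 same-numbered pairs) and 0.221 (36 others). For pairs of unstimulated libraries they were 0.093 and -0.059, and for pairs with 1 of each 0.127 and -0.068. Aldoa, Aldoc, Gapdh, Gpi1, Pfkm and Slc2a3 were highest in library 1 of all 4 stimulated groups (6 of 38, against 2.7% of all genes), and 12 of 38 in library 1 of the 3 unstimulated groups that have one (8.84% of all genes). Libraries 2 and 3 were highest in all these unstimulated groups for 1 and 0 of 38 (2.76% and 3.89% of all genes). In the 4 stimulated groups they were so for 0 and 0 (0.628% and 1.06%). The unstimulated knockout-labelled group with niacin has only libraries 2 and 3. Its niacin and label comparisons thus lack a library 1 on that side, and the part of this was not tested. What the number stands for was not given in the labels. With the replicate block the stimulation counts were 29, 30, 31 and 29 in that order, the label count in stimulated cells with niacin was 1 (Aldoc), and the remaining counts were 0. The block lost Rpe in wild-type-labelled cells with niacin (0.0519). The fit of the compared groups only was not run for the 2 contrasts that use all 8 groups. Depth limits the low genes, and the widest intervals of the averaged niacin effects were those of Hk3 and Eno2. The alternatives given for Gpd2, Txnip and Hif1a were chosen after seeing the data.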
